A study of Drosophila melanogaster with 3 samples.

Results

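The small heat shock genes of cytological region 67B were described here by the binding peaks of Rel around them. The members were the 7 genes Hsp67Bc, Hsp67Bb, Hsp22, Hsp26, Hsp67Ba, Hsp23 and Hsp27, chosen by name in the dm6 annotation, out of 13945 protein-coding genes. Hsp67Bb is listed there under the symbol CG4456 and was matched through its older name. They lie within 14.184 kb of chromosome arm 3L, 5 of them in band 67B2 and Hsp23 and Hsp27 in band 67B3. All peak summits within 5 kb of a member, a window of 24.184 kb, were listed.

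Rel was mapped in Drosophila melanogaster by sequencing the DNA that an anti-GFP antibody pulled down with it from chromatin (ChIP-seq). The 3 samples are biological replicates of 1 group: whole larvae of the wandering L3 stage, the last before pupariation, both sexes pooled, of a transgenic line with GFP at the N-terminus of Rel. The labels also write the tagged protein as Rel-eGFP, and the N-terminal description is followed here. No second genotype, treatment or time was sampled, so conditions could not be compared. Whole animals were used, so the tissue that a peak came from cannot be told, and the age in hours, the larvae pooled per replicate, the number of independent insertions and the promoter of the transgene are not given in the labels.

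Small heat shock proteins are chaperones with an α-crystallin domain that hold unfolding proteins in a soluble state. Most genes of 67B are switched on by heat through the heat shock factor, which binds repeated units of GAA in alternating orientation (heat shock elements), and several are also switched on without heat at the end of larval life, when the steroid hormone ecdysone rises. Rel (Relish) is the NF-κB family factor of the IMD immune pathway in flies, and such factors bind κB sites.

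The stretches before 4 members are shown because the peaks nearest to these genes lay in or beside them and because they differ in heat shock elements. They were read from RefSeq release 6 (dm6) on the strand of each gene, and end at the base before its annotated start. Capitals mark each heat shock element of 2 adjoining units, GAANNTTC or TTCNNGAA. The Hsp27 stretch is chr3L:9383813-9384062 on the plus strand, and the Hsp23 stretch is chr3L:9381632-9381881 on the plus strand. The Hsp26 stretch is chr3L:9377428-9377677 on the minus strand. The Hsp67Bc stretch is chr3L:9372498-9372721 on the minus strand, the whole space between the divergent starts of Hsp67Bc and Hsp67Bb.
Hsp27: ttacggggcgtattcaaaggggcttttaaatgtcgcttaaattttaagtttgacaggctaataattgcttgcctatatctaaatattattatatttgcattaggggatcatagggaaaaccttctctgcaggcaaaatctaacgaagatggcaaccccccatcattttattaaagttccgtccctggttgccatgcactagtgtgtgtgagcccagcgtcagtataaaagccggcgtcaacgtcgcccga
Hsp23: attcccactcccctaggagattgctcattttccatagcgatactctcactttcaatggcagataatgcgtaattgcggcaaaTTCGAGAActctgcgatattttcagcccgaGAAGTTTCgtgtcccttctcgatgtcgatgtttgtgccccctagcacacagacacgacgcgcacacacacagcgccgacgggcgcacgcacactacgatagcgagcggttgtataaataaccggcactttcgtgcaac
Hsp26: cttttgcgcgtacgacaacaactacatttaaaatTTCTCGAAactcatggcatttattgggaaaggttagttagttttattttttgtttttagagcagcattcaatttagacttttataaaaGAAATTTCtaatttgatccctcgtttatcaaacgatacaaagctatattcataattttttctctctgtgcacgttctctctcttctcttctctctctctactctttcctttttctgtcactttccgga
Hsp67Bc: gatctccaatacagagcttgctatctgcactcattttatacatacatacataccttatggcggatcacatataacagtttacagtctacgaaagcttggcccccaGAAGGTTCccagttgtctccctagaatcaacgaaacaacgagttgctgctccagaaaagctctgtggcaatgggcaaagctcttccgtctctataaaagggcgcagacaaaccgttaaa
The Hsp27 stretch held no such element, the Hsp23 and Hsp26 stretches held 2 each, and the Hsp67Bc stretch held 1. Hsp26 has a further element 45 bp before its second annotated start, which lies downstream of the stretch shown.

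The deposited data are 5 peak lists: 1 for each replicate and 1 for the 3 replicates together (pooled list), with 30000 peaks each, and an optimal list. The authors derived the optimal list of 9419 peaks with the irreproducible discovery rate (IDR), a measure of agreement between replicates. All 9419 were in the pooled list, and those near a member had the same signal rank in both lists. A place in the optimal list therefore does not show agreement at that peak. Among all optimal summits, 52 had no match in the highest 9419 peaks of any replicate. A peak's signal is the height given by the authors' peak caller, and rank 1 is the highest signal in a list. To set replicates side by side, the signal of a peak was divided by the median that its replicate had over the optimal peaks it matched (relative signal), so 1 is an ordinary optimal peak. Summits within 100 bp were matched, and agreement was counted in the 9419 peaks of highest signal of each replicate, among which 82.8% to 86.6% of the optimal summits had a match. The lists hold no read counts, so depth is unknown and no counting error could be given.

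All 7 members had an optimal summit within 5 kb, against 63.4% of protein-coding genes. The window held 11 optimal summits, or 4.55 per 10 kb, against 0.704 per 10 kb over the 6 chromosome arms. Of 5533 windows of the same length laid end to end along the arms, 58 (1.05%) held 11 or more. The members' window touched 12 protein-coding genes, so summits of neighbouring genes are among the 11. Of the 11, 8 lay within the cluster itself, 7 lay within 500 bp of a member's transcription start site (TSS), and 6 were above the optimal list's median signal of 383. Because the genes are close together, most peaks were counted for several members. The summit at position 9377380, at Hsp26, lay within 5 kb of 6 members, and the one at 9367468, at CG4452, within 5 kb of Hsp67Bc alone.

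Within 5 kb, Hsp26 and Hsp67Ba had 7 optimal summits each, Hsp67Bc, Hsp67Bb, Hsp22 and Hsp23 had 6 each, and Hsp27 had 4. The window held 26 summits in replicate 1, 31 in replicate 2, 24 in replicate 3 and 25 in the pooled list. Replicate 2 thus had the most peaks in the window, while several of its peaks at the members were among its weaker ones, as given below for each gene.

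**Figure D1:**
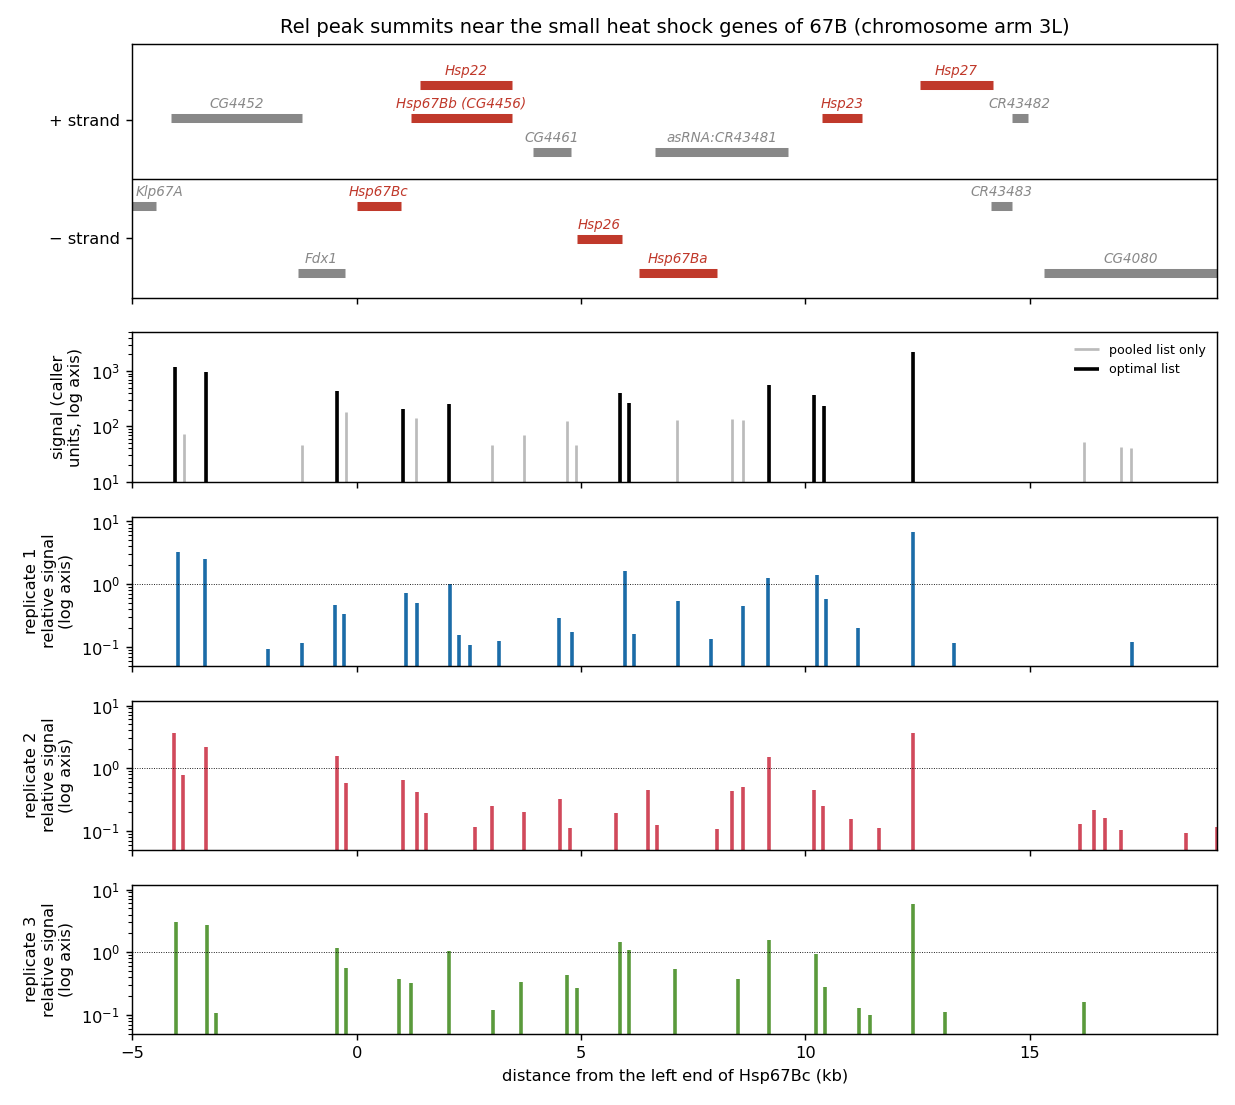
Peak summits over the members (red) and neighbouring genes (grey), with the distance from the left end of Hsp67Bc in kb on the horizontal axis. The second panel gives the signal of optimal summits (black) and of summits in the pooled list only (grey) on a log axis. The lower panels give the relative signal in each replicate, also on log axes, with a dotted line at 1. The tallest summit within the cluster is the one before Hsp27 in all 3 replicates.

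Within 1 kb of a TSS, 6 of the 7 members had an optimal summit, against 37.9% of protein-coding genes, and Hsp67Ba had none. The count depended on how the replicates were asked to match. When only optimal peaks matched among the highest 9419 peaks of both other replicates were kept, it was 1 (Hsp27) without replicate 1, 5 without replicate 2 and 4 without replicate 3. The same requirement lowered the share of all protein-coding genes to 30.8%, 30.8% and 29.7%. With the whole lists of the other replicates the counts were 6, 6 and 5, against 36.4%, 36.3% and 36.1% of protein-coding genes, so the lower counts came with the match among the highest 9419. At each of the other 5 members with an optimal summit within 1 kb, replicate 2 or replicate 3 had no match among its highest 9419.

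Hsp27, which encodes a small heat shock protein found in the nucleus, had the highest peak of the cluster. Its summit at position 9383910, 153 bp before the TSS and inside the first sequence shown, had a signal of 2209 and rank 526 of 9419 (the highest 5.58%). The signal at this peak was 817 in replicate 1, 481 in replicate 2 and 924 in replicate 3, with ranks 333, 947 and 448 of 30000. All 3 summits fell within 100 bp of the optimal one, so the position was shared by all replicates. The relative signal was 6.81, 3.61 and 5.99 in replicates 1, 2 and 3 (5.47 ± 1.66, SD, n = 3). The spread was 30.4% of the mean, larger than that of 67.1% of optimal summits, with replicate 2 the low one. This share, like those given for spread below, is over the 8511 optimal summits with a peak within 100 bp in all 3 whole lists.

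By the likeness of its relative signals over the 3 replicates, the Hsp27 peak was closest to the strongest TSS peaks of CG7841 and Z600, which share 1 peak, and of Fkbp14. The root mean square difference of the log2 values was 0.0528 for CG7841 and Z600 and 0.0539 for Fkbp14. Their peaks ranked 499 and 535, close to Hsp27 in height, which follows from choosing them by relative signal.

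Hsp23, which encodes a cytosolic small heat shock protein, had a peak on each side of its start. The upstream summit at 9381711, 171 bp before the TSS, had a signal of 363 and rank 5001. Its relative signal was 1.42 in replicate 1, 0.449 in replicate 2 and 0.949 in replicate 3 (0.940 ± 0.487, SD, n = 3). The spread was 51.8% of the mean, larger than that of 92.6% of optimal summits. Replicate 2 was again the lowest, and its peak, at rank 10595 of 30000, was outside its highest 9419. The summit at 9381919, 37 bp after the TSS in the 5′ UTR, was lower, with a signal of 237 and rank 7767. Its relative signal was 0.585, 0.250 and 0.278 in replicates 1, 2 and 3 (0.371 ± 0.186, SD, n = 3), so replicate 1 stood above the other replicates there.

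Hsp26, which encodes another cytosolic small heat shock protein, has a pair of annotated starts and had 2 optimal summits near them. The summit at 9377380, 5 bp before the downstream start, had a signal of 394 and rank 4558, and the summit at 9377581, 154 bp before the upstream start, had a signal of 264 and rank 7032. Replicate 3 had a peak at both, with relative signals of 1.48 and 1.09. Replicate 1 had a single strong peak here, at 9377492 with a relative signal of 1.62, which lay between them and within 100 bp of the upstream one only. Replicate 2 had none within 100 bp of the upstream summit, and a peak with a relative signal of 0.189 at 9377282, near the downstream one. Over the whole promoter, the strongest peak within 500 bp of a start had a signal of 195 in replicate 1 (rank 2453), 25.3 in replicate 2 (rank 19891) and 228 in replicate 3 (rank 2840). The replicates therefore disagreed at Hsp26 both in height and in where the summits were placed.

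Hsp22 encodes a small heat shock protein of the mitochondrial matrix, and Hsp67Bb a protein outside the α-crystallin family. Both genes are annotated over the same stretch, and RefSeq marks both as dicistronic, so a peak in it cannot be given to only 1 of them. The summit at 9373566 lay in the 3′ UTR of Hsp67Bb and the 5′ UTR of a longer Hsp22 transcript, 431 bp before the downstream Hsp22 start, with a signal of 251 and rank 7416. Its relative signal was 1.02 in replicate 1 and 1.04 in replicate 3, and replicate 2 had no peak within 100 bp (1.03 ± 0.0142, SD, n = 2). The lowest relative signal listed in replicate 2 was 0.0917, so a peak in it could have been as low as that and still be listed.

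Hsp67Bc encodes a small heat shock protein that works in autophagy with the co-chaperone Starvin. It shares its divergent promoter with Hsp67Bb, and the summit at 9372542 lay in that space, 45 bp before the Hsp67Bc start and 180 bp before the Hsp67Bb start. It was the lowest of the 11 by optimal signal, 204, at rank 8952. Its relative signal was 0.712, 0.639 and 0.377 in replicates 1, 2 and 3 (0.576 ± 0.176, SD, n = 3), below 1 in every replicate, and replicate 3 was the lowest here.

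Hsp67Ba, which encodes an α-crystallin domain protein, was the member without an optimal summit near its start. The nearest, at 9380699, was 1165 bp upstream, in an exon of the antisense RNA CR43481 and 340 bp after a start of that RNA, with a signal of 570 and rank 2851. Its relative signal was 1.27, 1.49 and 1.59 in replicates 1, 2 and 3 (1.45 ± 0.165, SD, n = 3). The spread was 11.4% of the mean, larger than that of 17.4% of optimal summits, so this was among the steadier peaks. In the pooled list, a summit lay 342 bp before the Hsp67Ba start at rank 12492 of 30000, and another 576 bp before it at rank 12721. The one 576 bp before the start had a peak within 100 bp in all 3 replicates, with signals of 54.1, 67.7 and 57.7 in replicates 1, 2 and 3, below each replicate's highest 9419.

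The remaining 3 optimal summits were at the neighbouring genes to the left. The summit at 9367468, 91 bp after the start of CG4452 and near that of the kinesin gene Klp67A, had a signal of 1200 (rank 1124) and relative signals of 3.22, 3.65 and 3.07 (3.31 ± 0.304, SD, n = 3). The summit at 9368144 in the coding sequence of CG4452 had a signal of 971 (rank 1480) and relative signals of 2.48, 2.18 and 2.72. The summit at 9371062 lay in an intron of Fdx1, a ferredoxin gene, 4 bp before a downstream start of that gene. It had a signal of 442 (rank 3949) and relative signals of 0.458, 1.55 and 1.17, with replicate 1 low. In replicate 2 the CG4452 peak, at 3.65, was as high as the Hsp27 peak, at 3.61, so the order of the highest peaks in the window differed between replicates.

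**Figure D2:**
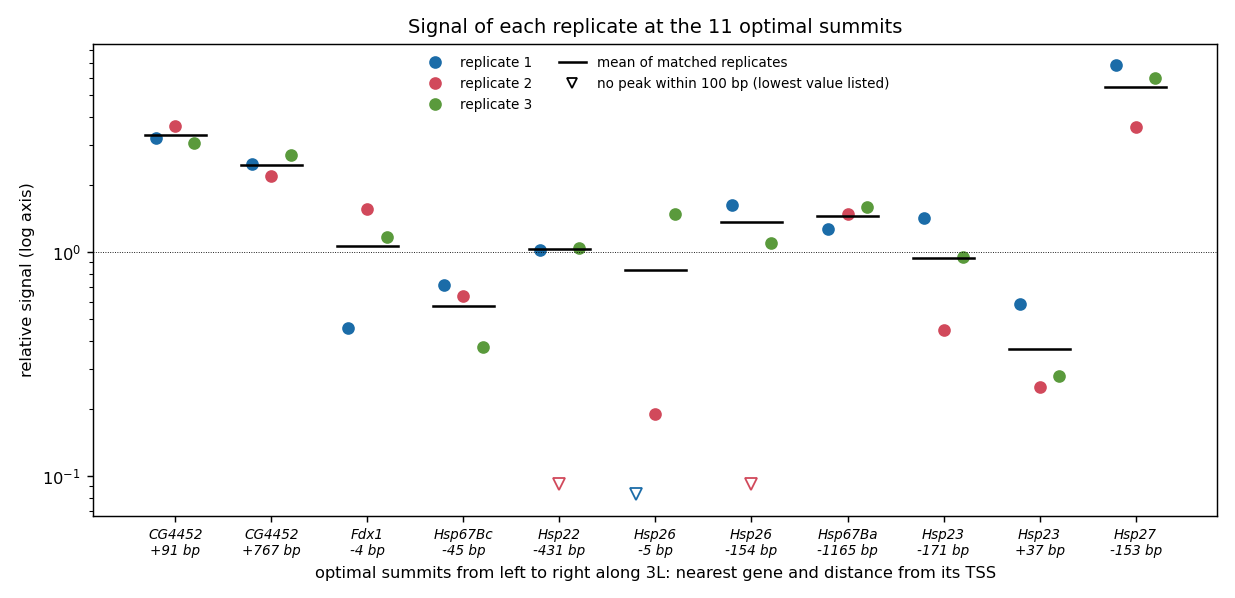
Relative signal (log axis) of replicates 1, 2 and 3 at the 11 optimal summits, from left to right along 3L, named by the nearest gene and the distance from its TSS. Bars are means over the replicates with a peak within 100 bp, and open triangles at the lowest listed value mark replicates with none; the points spread most at Hsp26 5 bp before its start and least, among summits with all 3 replicates, at CG4452 91 bp after its start.

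Among the highest 9419 peaks of each replicate, 4 of the 11 optimal summits had a match in all 3 replicates, against 64.3% of optimal summits. These 4 were both CG4452 summits, the summit upstream of Hsp67Ba and the Hsp27 summit. With the whole replicate lists, 8 of the 11 were matched in all 3, against 90.4% of optimal summits. The 3 others were the Hsp22 summit and both Hsp26 summits, where 2 replicates had a match. Since the authors built the optimal list from these replicates, the counts are no independent check of it.

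Beside these, 14 summits of the window were in the pooled list and not in the optimal list, with signals of 40.4 to 184 and ranks of 9689 to 24730. A peak within 100 bp was found in 1 replicate for 5 of them, in 2 replicates for 7 and in 3 replicates for 2. Those found in 3 replicates were the one 576 bp before Hsp67Ba and one 23 bp before the upstream start of Fdx1. CG4461, a small heat shock gene inside the cluster that is not a member, had a pooled summit 183 bp before its start and no optimal summit within 1 kb.

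Replicate 2 was set against the mean of replicates 1 and 3 at each promoter, by the strongest peak within 500 bp of a TSS. This comparison was made because replicate 2 had been seen to be low at several members, so it describes the pattern and gives no support to it. Replicate 2 was the lowest replicate at 4 of the 6 members with an optimal promoter peak (Hsp22, Hsp26, Hsp23 and Hsp27), against 31.5% of 4561 protein-coding genes with an optimal promoter peak and a peak in all 3 replicates. With the strongest peak within 1 kb of a TSS it was the lowest at 5 of these 6, against 31.8% of 5212 genes, and also at Hsp67Ba, which has no optimal summit in that window. The member gained among these 6, Hsp67Bb, had the same peaks as Hsp22 within 1 kb, so 1 comparison was counted for both.

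The size of the difference was largest at Hsp26. Its relative promoter signal was 1.62, 0.189 and 1.48 in replicates 1, 2 and 3, from peaks at different positions (9377492, 9377282 and 9377379). The mean of replicates 1 and 3 was therefore 8.18-fold that of replicate 2 (log2 of -3.03). Only 3 of the 4561 genes were at or below this value, a count that, like those below, includes the gene itself. The size depended on the window: within 1 kb, replicate 2 had a stronger peak at 9378003, inside Hsp67Ba, with a signal of 60.8 and a relative signal of 0.456. With that peak the difference at Hsp26 was 3.40-fold (log2 of -1.77), with 29 of the 5212 genes at or below. Over the 4561 genes the median was 0.11 and the central 95% ran between -1.21 and 1.07. The Hsp23 promoter, at 2.64-fold (log2 of -1.40, with 73 genes at or below), also lay outside that range. Hsp27, at 1.77-fold (log2 of -0.83, with 355 genes at or below), lay inside it. For Hsp22 the value was 1.61-fold (log2 of -0.69), also inside it, and it set different peaks against each other, since the replicate 2 value was that of the peak between Hsp67Bc and Hsp67Bb.

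At the other members replicate 2 was not the lowest within 500 bp. Hsp67Bc and Hsp67Bb, which share a peak, had a log2 value of 0.23, and Hsp67Ba, with promoter signals of 0.132, 0.434 and 0.374 and no optimal promoter peak, had 0.78. Within 1 kb the value was -0.69 at Hsp67Bb, where the peak before the downstream Hsp22 start was then the strongest in replicates 1 and 3, and -0.093 at Hsp67Ba, with relative signals of 0.536, 0.507 and 0.546. Of the neighbours to the left within 500 bp, Klp67A and CG4452 had 0.22 and Fdx1 had 0.93, so replicate 2 was not the lowest there. What makes replicate 2 differ at some of these genes was not tested, and the labels name no difference between the replicates beyond their numbers.

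**Figure D3:**
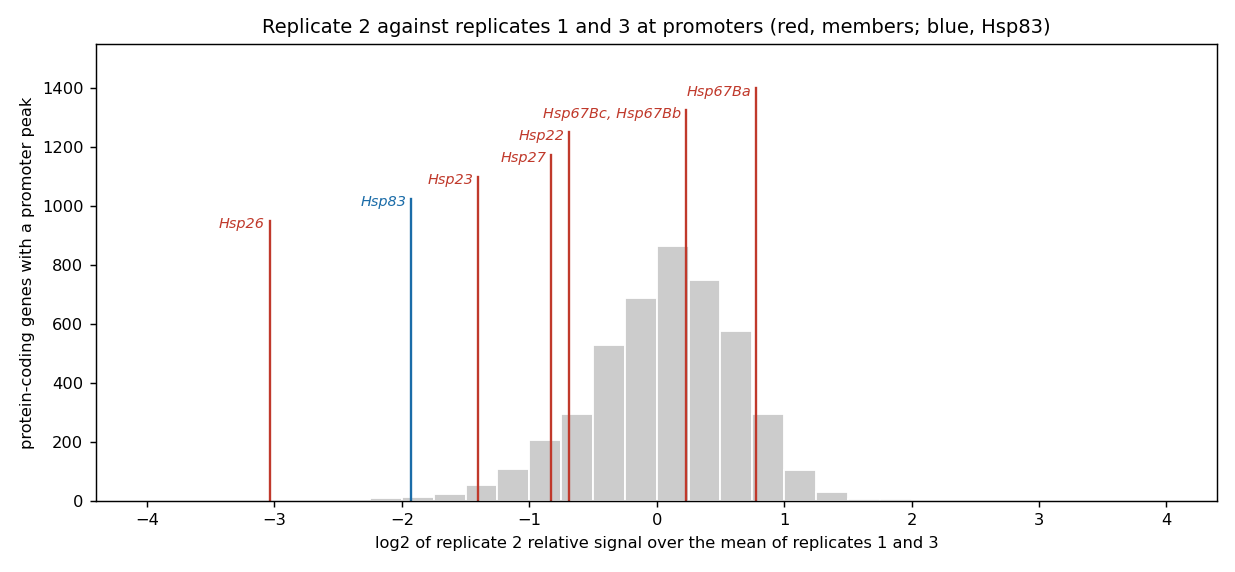
Distribution over 4561 protein-coding genes (grey bars) of the log2 of replicate 2 relative promoter signal, within 500 bp of a TSS, over the mean of replicates 1 and 3. Bars cover values between -4 and 4, and the few genes outside that range are not drawn. Vertical lines mark the members (red) and Hsp83 (blue) and their heights carry no value; Hsp26 is at -3.03, Hsp83 at -1.93 and Hsp23 at -1.40, left of most genes.

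A list of 23 other chaperone and heat shock genes was read in the same way. An optimal summit lay within 1 kb of a TSS for 9 of the 23 (against the 37.9% of protein-coding genes given above). The highest was at DnaJ-1, an Hsp40 co-chaperone, 572 bp from a start at rank 238, with relative signals of 10.1, 7.32 and 9.56 in replicates 1, 2 and 3. Hsp83, the fly Hsp90, had rank 1159 and relative signals of 4.37, 1.05 and 3.58. Its log2 value of replicate 2 over the others was -1.93, with 17 of the 4561 genes at or below (19 of the 5212 within 1 kb). The same value was -0.66 at CG14207, -0.30 at Hsp68 and -0.02 at stv, and went the other way at Hsc70-3 (0.15) and Hsc70-5 (0.72). It was 0.26 at Hsc70-4, but there it set different peaks against each other. At the Hsc70-4 optimal summit the matched relative signals were 0.933, 0.581 and 0.765 in replicates 1, 2 and 3 (log2 of -0.55). The remaining 7 were Hsc70-5 (rank 1358), Hsf, the heat shock factor (1700), Hsc70-3, the Hsp70 of the endoplasmic reticulum (2152), stv, which encodes Starvin (3235), CG14207, another small heat shock gene (3729), Hsp68 (3787) and Hsc70-4 (6286). Replicate 2 was the lowest at 4 of the 7 listed genes with a peak in all 3 replicates near an optimal promoter peak, against 31.5% of the 4561 genes. The 4 include stv, where replicate 2 was nearly level with the others (log2 of -0.02). The count depended on the measure. At the matched optimal summits, replicate 2 was also the lowest at Hsc70-4 and at DnaJ-1 (log2 of -0.423), and it was the highest at Hsf (log2 of 0.604). The Hsp70 genes of the list, which are near-identical copies and so uncertain in mapped reads, had no optimal summit within 1 kb.

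Sequence matches were counted within 100 bp of each summit, on both strands, and in promoters taken as the 250 bp before to 50 bp after each TSS. A heat shock element of 2 units lay at 4 of the 11 summits, against 9.64% of optimal summits. They were the Hsp67Bc summit, both Hsp26 summits and the upstream Hsp23 summit. In promoters, 5 of the 7 members held one, against 20.0% of protein-coding genes, and Hsp67Ba and Hsp27 held none in these windows. Hsp26 held 3, a number reached by 40 genes (0.287%), and Hsp22 and Hsp23 held 2 each, reached by 356 genes (2.55%). The 1 element of Hsp67Bc and the 1 of Hsp67Bb are the same site in their shared promoter, shown in capitals above.

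The form with 3 alternating units and no mismatch was at 0 of the 11 summits (0.180% of optimal summits) and in 0 of the 7 promoters (0.567% of protein-coding genes). With up to 1 mismatch it was at 4 summits, both of Hsp26 and both of Hsp23, against 5.15% of optimal summits, and in 3 promoters, those of Hsp22, Hsp26 and Hsp23, against 10.6% of protein-coding genes. The mismatch form was added after the matches without mismatch had been seen. Hsp27, with the highest Rel peak in the cluster, held none of these forms in its promoter or within 100 bp of its summit. The promoter window began 250 bp before the start, and heat shock elements farther upstream than these windows were not counted.

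A strict κB match lay at 0 of the 11 summits, against 7.80% of optimal summits, and in 0 of the 7 members' promoters, against 2.88% of protein-coding genes. A relaxed κB form lay at 2, the Hsp67Bc summit and the summit upstream of Hsp67Ba, against 20.6% of optimal summits, and in the promoters of 3 of the 7 members, Hsp67Bc, Hsp67Bb and Hsp22, against 14.6% of protein-coding genes. Hsp67Bc and Hsp67Bb share that site. At Hsp67Bc it overlaps the heat shock element, so the same bases were counted for both. The GAGA motif, searched as GAGAG, lay at 4 of the 11 summits, those of Hsp22, both of Hsp26 and the upstream one of Hsp23, against 29.0% of optimal summits. A match is a description of the letters in these windows, and the lack of one says nothing of the factors that bind there.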

How the data were processed

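Peaks of GFP-tagged Rel ChIP-seq were analysed from 3 biological replicates of 1 group. Per the file headers, meaning the text deposited with each replicate, the authors called peaks on dm6 in each replicate and on all 3 together, each with a control, and derived the optimal IDR list from these. Which aligner, peak caller and IDR cutoff were used is not given in the sources used here. The control was not analysed here. The signal value of each peak is as deposited by the authors, in units that their peak caller set for each library separately, and the deposited −log10 q-value was not used to rank peaks. Summits were placed from the peak start and the summit offset deposited by the authors, and coordinates are 1-based.

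Genes came from Ensembl release 115 and sequence from RefSeq release 6. Distances, ranks, relative signals and motif matches were computed with Python 3.11.15, numpy 2.4.6 and pandas 2.3.3, and checked on simulated peaks. A TSS is any annotated transcript start. Named genes are the members, genes within 5 kb, listed chaperones with an optimal summit within 1 kb of a TSS, and the 3 most like Hsp27. Other listed chaperones are given as counts, and CG4461 is a neighbour. With 1 group there was no contrast, so no test was run and no p-value is given. Alternatives covered windows, matching distance, lists, scaling, motif form and leaving out each replicate. The members and lists were chosen with earlier results of these data known.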

Additional observations from a re-analysis of the deposited data

How the results depend on the processing

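The count of 11 optimal summits near a member was 6 with the optimal list cut at its median signal and 25 with the whole pooled list. It was between 5 and 7 when each replicate was left out in turn and a match among the highest peaks of both others was asked for. Of all 9419 optimal summits, 6895, 7023 and 6568 met that requirement without replicates 1, 2 and 3. With the whole lists of the other replicates, an alternative chosen after seeing the data, the count near a member was 8 to 10. Over all 9419 optimal summits it was then 8813, 8831 and 8711. Members with an optimal summit within 1 kb of a TSS numbered 6, and between 1 and 5 with a match among the highest peaks of both others. They numbered 5 or 6 when the whole lists of the other replicates were used. Summits matched in all 3 replicates numbered 4, against 8 with the whole lists and between 5 and 7 with a replicate left out and matches asked of both others. The median over the 11 summits of the mean relative signal was 1.06, against 3.63 when signals were divided by the whole list's median, which changes the scale by construction, and between 1.02 and 1.36 with a replicate left out. Heat shock element matches numbered 4, against 0 with 3 units, and κB matches 0, against 2 in the relaxed form. For replicate 2 over the mean of replicates 1 and 3, the log2 value changed sign from the 500 bp to the 1 kb window at Hsp67Bb (-0.69 within 1 kb) and Hsp67Ba (-0.093 within 1 kb). The cause of the other changes was not tested. All 7 members kept an optimal summit within 5 kb under every alternative tried for that count. No paired analysis was possible because there is only 1 group. Depth is unknown, peaks below the 30000 of each list are not seen, and shared peaks mean that the members are not independent.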
